A study of Mus musculus with 3 samples.

Results

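The genes described here encode 10 enzymes that carry long-chain fatty acids into the mitochondrion and break them down by beta-oxidation: Cpt1a, Cpt1b, Cpt2, Acadm, Acadl, Acadvl, Hadha, Hadhb, Acaa2 and Etfdh. They were chosen by name, and every non-control probe whose RefSeq transcript belongs to them was kept, which gave 13 probes for 10 genes out of 26580 named probes for 20143 genes. The cells were 3T3-L1, an established mouse preadipocyte line that becomes fat-storing adipocytes after adipogenic induction. Total RNA of whole cultures was taken 2, 8 and 20 days after induction, the last after long culture, and the labels name no other treatment. The study asked how gene expression changes as the adipocytes enlarge. With 1 array for each day, all 3 on 1 slide, the days carry no replicate spread, and differences are given without p-values.

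Fatty acids are stored in adipocytes as triglyceride, and a part of those released is burned in the same cell. A long-chain acyl-CoA cannot cross the inner mitochondrial membrane: a carnitine palmitoyltransferase of the outer membrane (encoded by Cpt1a or Cpt1b) swaps its coenzyme A for carnitine, and the inner-membrane enzyme encoded by Cpt2 swaps it back. In the matrix the chain is shortened by repeated rounds of dehydrogenation, hydration, a further dehydrogenation and thiolytic cleavage. Electrons of the first step pass through the electron transfer flavoprotein to its ubiquinone oxidoreductase, encoded by Etfdh, and so to the respiratory chain.

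Among the chosen enzymes, by their main probes, the genes of the last steps of the cycle differed most between day 2 and day 8. On day 8 Acaa2 was 2.3-fold higher, Hadhb 1.81-fold and Hadha 1.5-fold. The chosen dehydrogenases of the first step and Etfdh were within 1.20-fold of their day 2 level. Genes outside this choice did not all keep to that split. The later-step genes Echs1, Hadh and Acat1 were 1.07-fold, 1.09-fold and 1.22-fold higher on day 8. Of further dehydrogenase genes of the first step, Acads was 1.67-fold higher and Acad9 1.04-fold. The 2 genes of the entry enzyme parted later: from day 8 to day 20 Cpt1a was 1.31-fold higher and Cpt1b 1.58-fold lower. All 13 probes were well above background on all 3 arrays, and none was saturated.

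Hadha and Hadhb encode the 2 subunits of the mitochondrial trifunctional protein and are neighbours that run away from each other, so that their promoter windows overlap. The shared stretch, chr5:30155003-30155230 on the plus strand of GRCm38.p6 (RefSeq), lies before the start of both genes and is shown because both genes were higher together. Capitals mark its 1 match to the GC box GGGCGG.

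Hadha and Hadhb: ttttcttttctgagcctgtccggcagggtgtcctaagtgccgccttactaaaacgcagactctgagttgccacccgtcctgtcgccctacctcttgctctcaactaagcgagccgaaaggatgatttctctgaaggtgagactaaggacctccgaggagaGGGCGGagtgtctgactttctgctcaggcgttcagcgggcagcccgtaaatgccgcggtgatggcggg

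Promoter windows of 300 bases, 250 before a start and 50 after it, were found in the RefSeq table for 8 of the 10 genes, Cpt1b and Acaa2 being the others. They were searched on both strands for 7 motifs. The hexamer AGGTCA, the core recognised by PPARs and other nuclear receptors, was in the windows of Cpt1a, Acadm and Acadvl, 3 of 8, and in 16.3% of all 32851 windows. It is also contained in TCAAGGTCA, a motif of oestrogen-related receptors found in 0.423% of windows, and in its own direct repeat with 1 base between, found in 0.0396%. Of the 8 windows, 0 held either. The palindrome recognised by the respiratory gene regulator NRF1, in capitals in the Etfdh stretch below, was in the window of Etfdh and in 0.971% of all windows. GGGCGG was in 6 of 8 windows against 35.7% of all, CCAAT in 2 of 8 against 37.4%, and TATAAA in 0 of 8 against 13.6%. The 4 stretches below hold the hexamer or the palindrome, in capitals and on the strand of each gene (TGACCT is the hexamer read on the other strand); they come from chr19:3323195-3323224 (plus strand), chr3:153944864-153944893 (minus), chr11:70015498-70015527 (minus) and chr3:79628876-79628905 (minus).

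Cpt1a: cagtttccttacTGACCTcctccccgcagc
Acadm: gTGACCTtcgggctccggtgacactgggca
Acadvl: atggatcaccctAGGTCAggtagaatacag
Etfdh: tgcttctaggGCGCATGCGCacacgcgaga

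Those letters are a description of the windows, and no binding was measured here. Levels below are log2 of the processed intensity minus the 75th percentile of the same array, so that 0 is the brightness of that percentile. A level orders the days for 1 probe and was not compared between probes. The error beside a difference is a technical SD from repeated spots, 0.076 in the median over all genes from day 2 to day 8, and does not cover the spread between cultures. For Acaa2 and the main Cpt1a probe, spotted 10 times on each array, it is the SD of the mean of the spots. It is therefore smaller than for a probe with a single spot. A difference of 1 is 2-fold.

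Of the 10 genes, 1 was at least 2-fold higher on day 8 than on day 2 and 0 were lower, where 13.8% of 12044 measured genes were higher and 12.9% lower (26.7% either way). At 1.5-fold, 3 were higher and 0 lower, against 22.6% and 25.3% of all genes (47.8% either way). The shares higher are near the background, and those lower are below it. With 10 genes and 1 array a day, the counts by themselves set the group apart from nothing. The median over the 10 was 0.22 against -0.06 for all genes, and 8 of them lay above that all-gene median. A scaling by 1 constant per array cannot change that count. With quantile normalization, cyclic loess and normexp background correction, which can change it, the count was also 8. Between day 8 and day 20, 0 of 10 passed 2-fold, against 3.58% of 12321 genes higher and 1.74% lower (5.32% either way). At 1.5-fold 0 were higher and 1 was lower, Cpt1b, against 8.43% and 8.94%. The median was then -0.22 against -0.05 for all genes, but 0.022 after quantile normalization, 0.038 after cyclic loess and 0.44 on the spike-in scale.

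**Figure D1:**
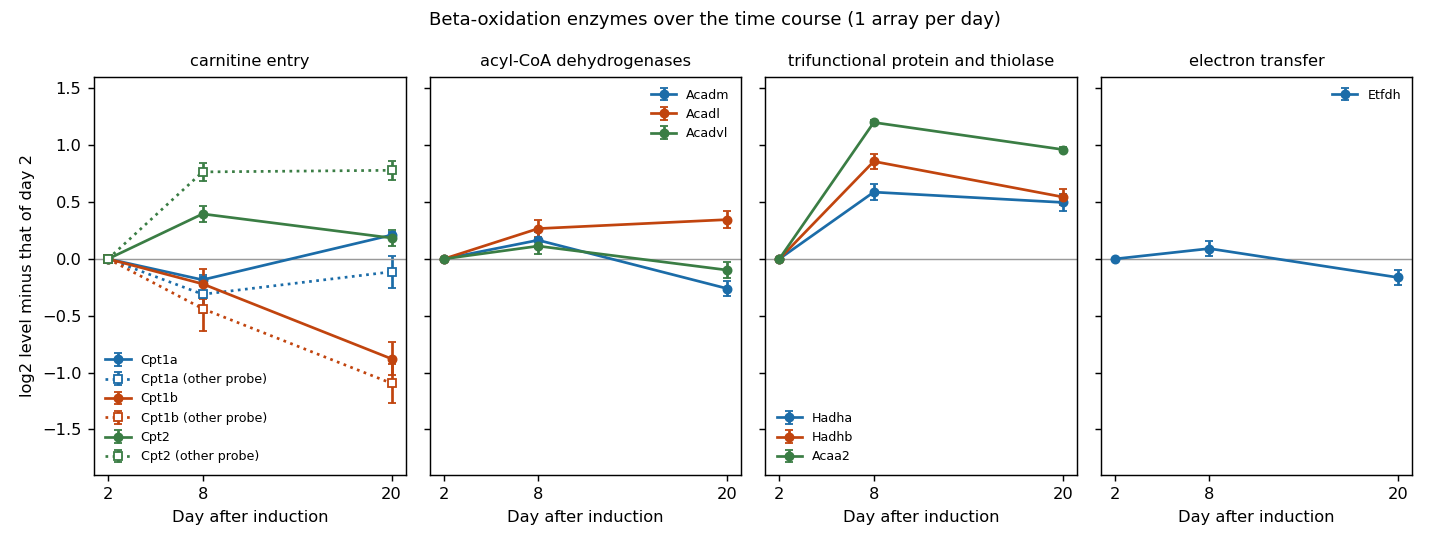
Log2 level of every probe minus its own day 2 level, plotted against the day after induction in 4 panels by step of the pathway; bars are technical SDs and open squares with dotted lines are second probes. The thiolase and trifunctional protein genes reach 0.59 to 1.20 on day 8, and Cpt1b is at -0.88 on day 20.

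Among the genes of carnitine entry, Cpt1a encodes the form of carnitine palmitoyltransferase 1 known from liver and most other tissues, the malonyl-CoA-sensitive gate of the pathway. Its main probe, spotted 10 times on each array, was at -0.06 on day 2, -0.24 on day 8 and 0.15 on day 20. Day 8 was thus the lowest and day 20 the highest, with differences of -0.18 (SD 0.026) and 0.39 (SD 0.031), and 0.21 (SD 0.027) over the whole course. The second Cpt1a probe, much dimmer, was at -3.28, -3.59 and -3.40. It gave -0.31 (SD 0.167) to day 8 and 0.20 (SD 0.160) to day 20, the same directions but within 2 technical SDs. Over the whole course it gave -0.11 (SD 0.139), so that the probes disagreed on whether day 20 lay above day 2. Of the 10 genes, Cpt1a was the 1 gene that was lowest on day 8 by its main probe in the main scaling. Its difference after day 8 ranged from 0.30, the mean of both probes, to 1.06 with spike-in scaling.

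Cpt1b encodes the form typical of muscle and brown fat, and was dim. Over days 2, 8 and 20 its main probe was at -2.98, -3.20 and -3.86, and the second at -3.42, -3.86 and -4.52. Both probes therefore ordered the days the same way, highest on day 2 and lowest on day 20. The difference to day 8 was -0.22 (SD 0.129) by the main probe and -0.44 (SD 0.198) by the other. The difference after day 8 was -0.66 (SD 0.151) and -0.66 (SD 0.204), and was 0.01 for the main probe with spike-in scaling, under which the all-gene median itself was 0.62. Relative to the all-gene median Cpt1b was at -0.61 in the main values, which a scaling by 1 constant cannot change. With quantile normalization, cyclic loess and normexp background correction it stayed lower, the value nearest to that median being -0.42.

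Between days 8 and 20 the differences of Cpt1a and Cpt1b were 1.05 apart (technical SD 0.154), and from day 2 to day 8 0.04 apart (SD 0.132). The gap opened after day 8, and since both genes are read from the same arrays it does not depend on a scaling by 1 constant. Of 13 skeletal and cardiac muscle markers, 5 were well above background on day 2 and 6 on days 8 and 20, with Ckm, Myh1, Myh2, Myh4, Myod1, Myog and Actc1 at background on all 3 arrays. Their summed signal, in multiples of the 75th percentile, was 0.382, 5.15 and 14.0. Mb (myoglobin), at background on day 2, Acta1, Des and Tnnt2 were higher on day 20 than on day 2, whereas Tnnt3 (-1.38) and Myh7 (-0.61) were lower, as Cpt1b was. Of 10 brown and beige adipocyte markers 6 were well above background on each day (summed signal 4.24, 167 and 127), and Ucp1, Dio2 and Prdm16 were not on any array. The 6 were not the same on each day: Cox8b, at background on day 2, had by day 8 a signal at least 1690-fold higher, and Elovl3, at background after day 2, one at least 10.3-fold lower. The part of these markers in the result was not tested.

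Cpt2 encodes the inner-membrane transferase. Its main probe was at 3.64, 4.04 and 3.83 on days 2, 8 and 20, and its second at -1.47, -0.71 and -0.69. Both were lowest on day 2. The difference to day 8 was 0.40 (SD 0.069) by the main probe and 0.77 (SD 0.080) by the other, a gap of -0.37 (SD 0.105) between probes of 1 gene. After day 8 they gave -0.21 (SD 0.071) and 0.01 (SD 0.084), the former above 0 with cyclic loess (0.02) and spike-in scaling (0.45). Cpt2 was thus higher after day 2 by both probes, by an amount that depends on the probe.

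The acyl-CoA dehydrogenases carry out the first step, each on its own range of chain lengths. Acadvl, which encodes the very long-chain enzyme of the inner membrane, was at 6.19, 6.31 and 6.10. Its difference to day 8 was 0.11 (SD 0.069) and the later one -0.21 (SD 0.071), which became 0.25 after quantile normalization, 0.19 after cyclic loess and 0.45 on the spike-in scale. No ordering of its days held under every scaling. Acadm, encoding the medium-chain enzyme, was at 5.65, 5.82 and 5.39. It was higher on day 8 by 0.17 (SD 0.069) and lower on day 20 by -0.43 (SD 0.071), where only spike-in scaling gave a value above 0, 0.24. Relative to the all-gene median Acadm was at -0.38 from day 8 to day 20 in the main values, which a scaling by a constant per array cannot change. Quantile normalization, cyclic loess and normexp background correction can change it. With them it stayed lower, the value nearest to that median being -0.08.

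Acadl encodes the long-chain enzyme. By main probe and main scaling it alone of the 10 was ordered day 20, day 8, day 2 from high to low. The second Cpt2 probe had that order too, as had Acadvl, Hadhb and Acaa2 with quantile normalization. With cyclic loess Cpt2, Acadvl, Hadha, Hadhb and Acaa2 had it. Over days 2, 8 and 20 Acadl was at 1.78, 2.05 and 2.13. The step to day 8 was 0.27 (SD 0.074), the next one 0.08 (SD 0.079) was within the technical spread, and the whole course gave 0.35 (SD 0.075). Days 8 and 20 of Acadl were therefore not separated by the main scaling, and both lay above day 2.

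Hadha and Hadhb, printed above by their common promoter stretch, encode the alpha and beta subunits of the trifunctional protein, which joins hydratase, hydroxyacyl-CoA dehydrogenase and thiolase activities for long chains. Hadha was at 1.69, 2.28 and 2.19, and Hadhb at 5.10, 5.96 and 5.65. Both were lowest on day 2 and highest on day 8. The first step was 0.59 (SD 0.074) for Hadha and 0.86 (SD 0.069) for Hadhb, which were 0.27 apart (SD 0.101). After day 8 the values were -0.09 (SD 0.079) and -0.31 (SD 0.071). Over the whole course the subunits were level in the main values, at 0.50 and 0.55, 0.05 apart (SD 0.102). They were not level with quantile normalization (0.63 for Hadha and 1.07 for Hadhb) or cyclic loess (0.79 and 1.09). The step to day 8 was at least 0.48 for Hadha and 0.75 for Hadhb under the other scalings and normexp. Probe rules and filters could not change it, as each gene has 1 bright probe. The step to day 20 changed sign under spike-in scaling for both (0.57 and 0.35) and under cyclic loess for both (0.03 and 0.04). It also did so under median scaling for Hadha (0.11) and under quantile normalization for Hadhb (0.07).

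Acaa2 encodes the thiolase that splits off acetyl-CoA from medium-length chains. It was spotted 10 times on each array, and stood at 5.52 on day 2, 6.72 on day 8 and 6.49 on day 20. Day 2 was the lowest. The 10 spots read 29362 to 32739 unscaled intensity units on day 2 and 65257 to 72166 on day 8. They are repeat prints on 1 array a day, so their spread covers spot noise and not that between cultures. The difference was 1.20 (SD 0.020), or 2.3-fold, and was past 2-fold under all 10 alternative settings, the highest being 1.40 with cyclic loess. Its difference exceeded that of Hadhb by 0.34 (SD 0.072). Its later difference was -0.24 (SD 0.021), a sign that turned after quantile normalization (0.27), after cyclic loess (0.17) and on the spike-in scale (0.43). Day 20 remained above day 2 by 0.96 (SD 0.021), which is 1.95-fold, and past 2-fold with the 6 alternatives that could change the value.

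Etfdh was at 3.97, 4.06 and 3.80 on the 3 days. The first step was 0.09 (SD 0.069), within the technical spread, and the second -0.25 (SD 0.071), with 0.41 under spike-in scaling. Its partners Etfa and Etfb, the subunits of the flavoprotein that it oxidises, were at 0.39 and 0.40 from day 2 to day 8 and at -0.41 and -0.79 after it; they were named after their values were seen.

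**Figure D2:**
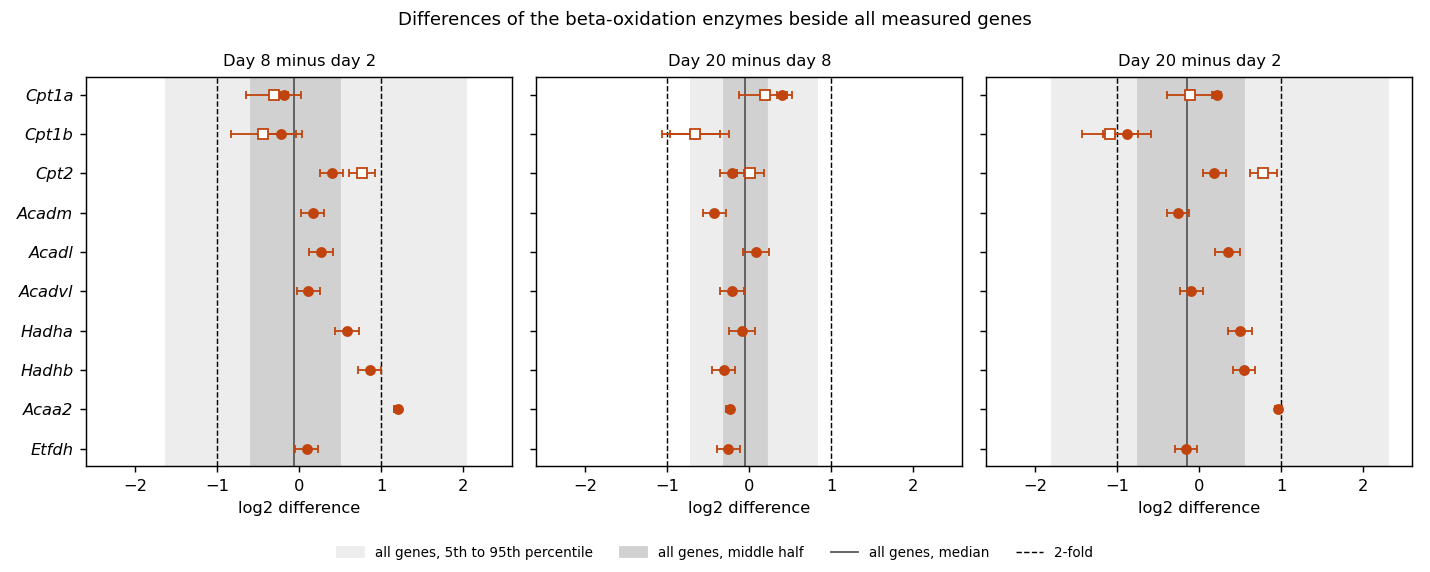
Log2 difference of each gene for 3 pairs of days; filled circles are the main probe, open squares the second probe, and bars are 2 technical SDs. Grey bands give the spread of all measured genes; Acaa2 alone lies past the 2-fold line from day 2 to day 8, at 1.20.

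Over the whole course, day 20 against day 2, 0 of the 10 passed 2-fold by the main probe, where 15.5% of 11888 genes were higher and 17% lower (32.4% either way). At 1.5-fold Acaa2 was higher and Cpt1b lower, against 24% and 31.1% (55.1% either way). The second Cpt1b probe was past 2-fold, at -1.09 (SD 0.171). The median was 0.20 against -0.14 for all genes. By main probe and main scaling, the order from high to low was day 8, 20, 2 in 4 genes (Cpt2, Hadha, Hadhb, Acaa2). It was day 8, 2, 20 in 3 genes (Acadm, Acadvl, Etfdh). By step of the pathway, the 3 genes of the trifunctional protein and thiolase gave 0.50 to 0.96, the 3 dehydrogenases -0.26 to 0.35. Both ranges rest on few genes and 1 array a day. Outside the 10, the later-step genes Echs1, Hadh and Acat1 gave -0.44, -0.10 and 0.02. The dehydrogenase genes Acads and Acad9 gave 0.24 and -0.16.

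**Figure D3:**
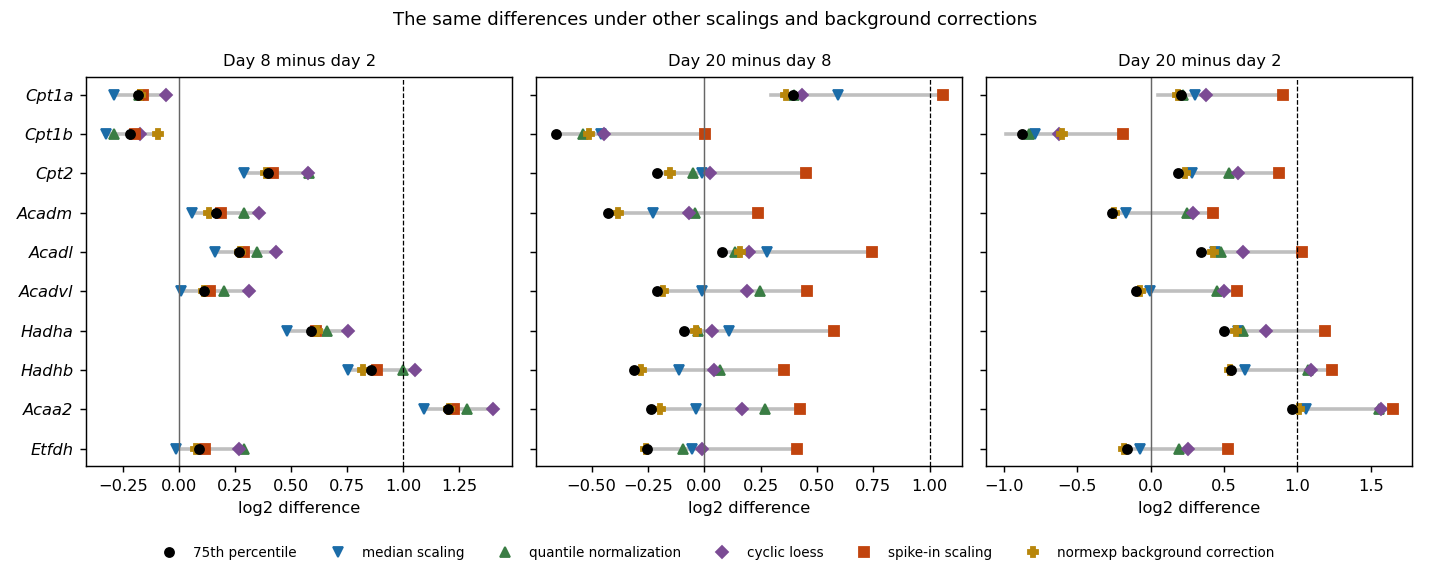
The same log2 differences under the main scaling (black) and 5 other treatments of the arrays, with a grey line for the range over all alternatives. From day 2 to day 8 the markers of a gene lie close together, while from day 8 to day 20 those of 8 genes fall on both sides of 0 and spike-in scaling lies furthest right for each gene.

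The day 8 to day 20 values need the scaling beside them. With the arrays set on 8 spike-in probes the median of all genes moved from -0.05 to 0.62, and 8 of the 10 genes changed sign in at least 1 alternative; Cpt1a and Acadl stayed above 0 in all of them. Counted against the all-gene median of the same scaling, 2 of 10 genes were above it in the main values and 5 of 10 with quantile normalization.

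Other genes of mitochondrial fatty acid oxidation moved in both directions. Of 25 listed, 24 were measured on days 2 and 8, and 5 passed 2-fold upwards and 1 downwards (median 0.28), where 13.8% and 12.9% of all genes did. The higher ones were Acad11 (2.25) and Acad10 (2.00), members of the acyl-CoA dehydrogenase family, Acsl3 (1.34), an acyl-CoA synthetase, Acot2 (1.29), a mitochondrial acyl-CoA thioesterase, and Slc22a5 (1.04), the plasma membrane carnitine transporter. The Slc22a5 call is lost with median scaling. The count of higher genes was 4 there, and also with quantile normalization and normexp. Cpt1c, the neuronal relative of the entry enzymes, was lower (-1.22, SD 0.153), a call lost with normexp background correction. After day 8, 0 of 24 passed 2-fold (median -0.24, above 0 with cyclic loess and spike-in scaling, up to 0.42). Over the whole course 4 were higher, Acad11, Acad10, Acot2 (1.82) and Acsl3, and 2 lower: Slc25a20 (-1.19), the carnitine-acylcarnitine carrier that sits between Cpt1 and Cpt2, and Acsl1 (-1.12), the main acyl-CoA synthetase of adipocytes. Neither lower call was made with spike-in scaling or with the percentile over probes well above background, and 1 of them with quantile normalization, cyclic loess or normexp. The carrier was at 0.12, -0.70 and -1.07 on days 2, 8 and 20, and so was lower after day 2 where Cpt2 was higher.

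Malonyl-CoA inhibits the entry enzymes. Of 9 genes of its synthesis, breakdown and control by AMP-activated kinase measured on days 2 and 8, 4 passed 2-fold upwards and 0 downwards (median 0.71). Among all genes 13.8% and 12.9% did. The other 5 did not pass, and lay between -0.63 (Prkag1) and 0.71 (Prkab2), both kinase subunit genes. Acacb, the acetyl-CoA carboxylase of the mitochondrial surface, was at 2.69, Acly, which supplies cytosolic acetyl-CoA, at 1.74 and Acaca, the cytosolic carboxylase, at 1.40. After day 8, 1 of 10 passed 2-fold, Prkaa2 (1.18), a catalytic subunit of AMP-activated kinase, against 5.32% of all genes either way. On day 20, 5 of 9 were at least 2-fold higher than on day 2, against 15.5% of all genes. The kinase subunit gene Prkag1 (-1.07) was the 1 lower, against 17% of all genes. Of the scalings by 1 constant per array, median scaling, spike-in scaling and the percentile over probes well above background each lose the Prkag1 call.

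The peroxisome, which shortens very long chains by a separate set of enzymes, gave higher counts than the 10 mitochondrial genes, without a test of the difference. Of 12 peroxisomal genes measured on days 2 and 8, 6 passed 2-fold upwards and 0 downwards, against 13.8% and 12.9% of all genes. Their median was 1.19 where that of the 10 was 0.22. Acox3, an acyl-CoA oxidase, was at 2.53, Acaa1b, a peroxisomal thiolase, at 1.93 and Decr2, a dienoyl-CoA reductase, at 1.56. Acaa1b and its neighbour Acaa1a are close copies, and their probes may cross-read. As bounds, Ehhadh, the peroxisomal bifunctional enzyme, was at least 24.0-fold higher and Abcd2, a transporter of very long-chain acyl-CoA, at least 5.81-fold, both being not well above background on day 2. Later, between days 8 and 20, the peroxisomal median was -0.03 and 0 of 14 passed 2-fold; the sign of that median turned under 5 alternatives.

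Among 3 further mitochondrial groups, from day 2 to day 8, branched-chain acyl-CoA catabolism, whose dehydrogenases also feed Etfdh, had 11 of 16 genes at least 2-fold higher (median 1.23, with Bckdha at 2.74, Aldh6a1 at 2.11 and Mccc1 at 2.07). The citric acid cycle had 1 of 17 higher, Sdha, and 1 lower, Idh3a (-1.46), with a median of 0.20, and the respiratory chain 0 of 28 either way, with a median of 0.05 that was -0.06 under median scaling. The 10 enzymes thus had a median near that of the citric acid cycle and below those of branched-chain and peroxisomal genes; no test of these differences was possible with 1 array a day. For day 20 against day 8 the medians were -0.22 for the 10, -0.28 for the citric acid cycle, -0.38 for branched-chain catabolism and -0.52 for the respiratory chain, each of them above 0 with spike-in scaling (0.44, 0.38, 0.28 and 0.14).

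**Figure D4:**
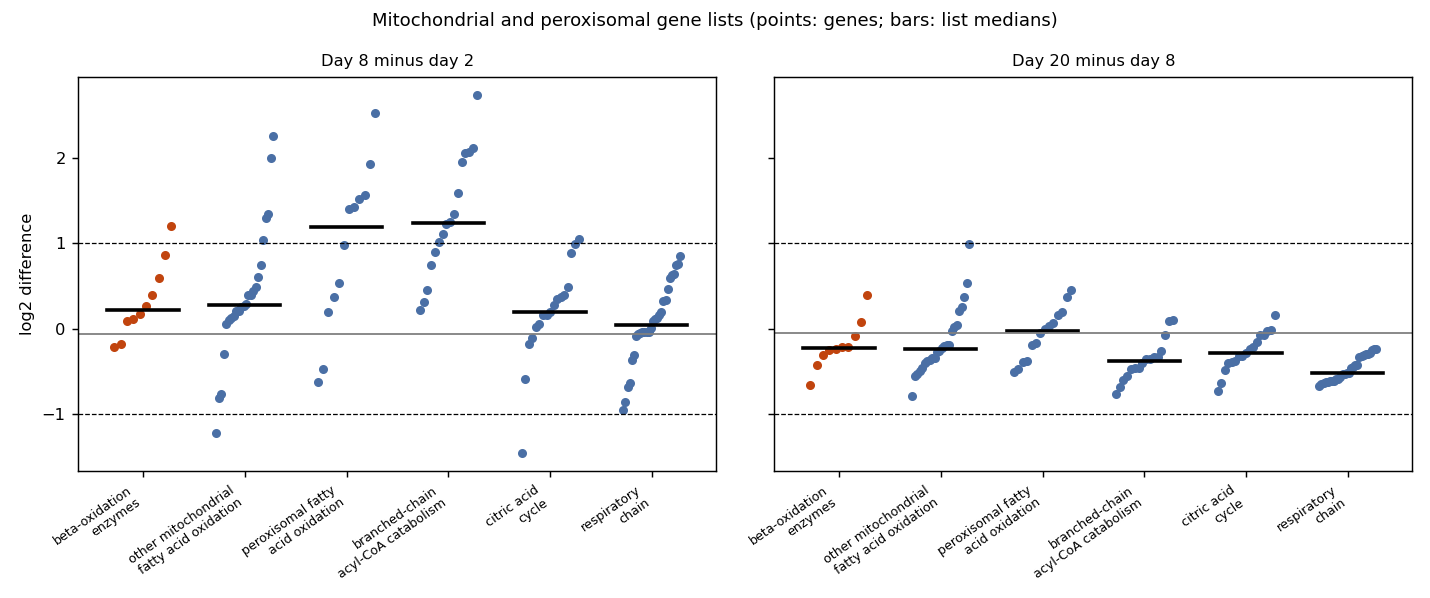
Log2 difference of each gene of 6 lists, day 8 minus day 2 and day 20 minus day 8; bars are list medians, the grey line is the median of all measured genes and dashed lines mark 2-fold. On day 8 the medians of peroxisomal and branched-chain genes (1.19 and 1.23) lie above that of the beta-oxidation enzymes (0.22).

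Regulators of these genes were mixed. Of 13 measured on days 2 and 8, 3 were at least 2-fold higher: Pparg (1.71), the nuclear receptor of adipogenesis, and Sirt3 (1.46) and Sirt5 (1.29), mitochondrial deacylases that act on enzymes of beta-oxidation. Nrf1, whose motif was found before Etfdh, was lower (-1.32). Ppara, the receptor that drives beta-oxidation genes in liver, was at -2.72, -2.87 and -2.89 on the 3 days and Ppargc1a, its coactivator, at -0.24, 0.44 and 0.69; these 2 were named after their values were seen. After day 8, 0 of 13 passed 2-fold. On day 20 Tfam, which maintains mitochondrial DNA, was also at least 2-fold lower than on day 2 (-1.01). This call at the threshold is lost with median scaling, spike-in scaling and the percentile over probes well above background.

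Markers of several cell types were read on the same arrays. All 11 adipocyte markers were well above background on every array, with a summed signal of 829, 1860 and 1287 multiples of the 75th percentile on days 2, 8 and 20, and the 8 preadipocyte and fibroblast markers went from 158 to 226 and 379, with Cd34 at background on day 2. In whole cultures a different share of cells of a type and a different amount of RNA per cell cannot be told apart. Of 7 macrophage markers with a probe, 3 were well above background on each day (Adgre1, Ptprc, Lyz2 and Mrc1 were not; summed signal 9.02, 11.5 and 6.22), of 6 endothelial ones 3, 3 and 4 (Cdh5 and Tek were not on any; 5.61, 7.22 and 4.69), and of 5 hepatocyte ones 0, 2 and 1 (Alb, Ttr and Apoa1 were not on any; 0.047, 0.268 and 0.869). The part of the markers in the differences of the 10 enzymes was not tested.

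The 5 genes whose values over the 3 arrays lay nearest to the median course of the 10 enzymes (-0.14, 0.14 and -0.0007 after centring on the mean of the days) were Ikbkb, Serpina3b, Lekr1, Iars2 and Gpr89, at Euclidean distances of 0.0060 to 0.012 log2 units. The course is a common one: 2013 of the 11810 genes well above background on all 3 arrays lay within the median distance of the 10 enzymes themselves.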

How the data were processed

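Total RNA was labelled with Cy3 and hybridised to 1-colour Agilent arrays, per the labels' protocols. Deposited intensity values are linear spot brightness from Agilent Feature Extraction (version 10.7.1.1 in the submitters' processing notes), background-corrected and not scaled between arrays, per the file headers. Spot marks (well above background, saturated, outlier) are deposited as yes or no. The authors' deposited series table is log2: on every array it matched log2 intensity shifted by a single number, within 0.01 for 100% of probes. Of 43020 non-control spots per array, 55.3% to 56.9% were well above background. The number of arrays limits the precision.

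Outlier spots and control spots were dropped, repeated spots averaged as log2, and each array's 75th percentile subtracted. RefSeq accessions named 26580 of 39429 probes (GRCm38.p6 table), and a gene with several probes took the brightest over the arrays. The array design names an earlier build, so only promoter windows carry coordinates. A difference needs both arrays well above background; with 1, a bound took the larger of the dim probe's signal and the array's lowest signal well above background. Technical SDs came from repeated spots, over the 50 repeated probes nearest in signal where a gene had a single spot. For an enzyme probe with repeated spots they are SDs of the mean of its spots. Normexp (offset 50) used median spot signals in place of the planned mean signals. Limma 3.58.1 (R 4.3.3) and Python 3.11.15 were used, and calls were tested on simulated data. Other scalings, background correction, probe rules, filters and a 1.5-fold threshold were tried.

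Named genes are the 10 enzymes, other mitochondrial oxidation genes past 2-fold, up to 3 per direction past 2-fold in each further list, and the 5 nearest courses. The enzymes and lists were chosen with earlier results of these data known.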

Additional observations from a re-analysis of the deposited data

How the results depend on the processing

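No paired analysis was possible because each day has 1 array and the labels carry no replicate numbers; for the same reason no replicate could be left out. From day 2 to day 8 the count of enzymes past 2-fold was 1, but 2 with quantile normalization and with cyclic loess, and 3 at 1.5-fold; their median of 0.22 was 0.11 with median scaling, 0.35 with the percentile over probes well above background, 0.32 with quantile normalization and 0.39 with cyclic loess. The 6 other oxidation genes past 2-fold became 10 at 1.5-fold. From day 8 to day 20 the count of 0 enzymes became 1 with spike-in scaling and 1 at 1.5-fold. Their median of -0.22 became -0.024 (median scaling), 0.022 (quantile), 0.038 (cyclic loess) and 0.44 (spike-in). The count of 0 other oxidation genes became 1 with median, well-above-background percentile, quantile and cyclic loess scaling, 3 with spike-in scaling and 2 at 1.5-fold. From day 2 to day 20 the count of 0 enzymes became 1 with median scaling, the well-above-background percentile and normexp, 2 with quantile, cyclic loess and 1.5-fold, and 4 with spike-in scaling; the median of 0.20 became 0.29, 0.39, 0.47 (quantile), 0.55 (cyclic loess) and 0.89 (spike-in). Shares of all genes past 2-fold were not counted under the other scalings, so these counts have no background beside them. With spike-in scaling the all-gene median was itself 0.62 for day 20 against day 8 and 0.54 for day 20 against day 2. In the latter the enzymes' median lay 0.34 above it, as in the main values. The technical SD of 0.076 was 0.12 when pooled over signal. Of the 99 values of single enzymes under 10 alternatives, 1 changed sign from day 2 to day 8 (Etfdh, median scaling). For day 20 against day 8, 17 did so, and for day 20 against day 2, 11. Fewer than 99 were free to change: the probe rule leaves genes with 1 probe as they are. The filters leave the value of a gene that passes them as it is, and the series table holds the same values shifted. The scalings differ in their construction, and which is nearest to transcript amounts was not tested. Dim signal limits Cpt1b and the second Cpt1a probe.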

Other observations

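Known PPAR targets outside beta-oxidation did not move as 1 group. Of 11 measured on days 2 and 8, 2 were at least 2-fold higher, Txnip (3.08), a regulator of thioredoxin, and Hilpda (1.28), an inhibitor of triglyceride lipase. The mitochondrial carriers Ucp2 (-1.49) and Ucp3 (-1.30), neighbouring genes, were lower. The list's median was -0.05, and above 0 under 3 alternatives. From day 8 to day 20, 0 of 11 passed 2-fold. On day 20 the droplet coat gene Plin2 was also at least 2-fold lower than on day 2 (-1.17). Of the scalings by 1 constant per array, spike-in scaling and the percentile over probes well above background lose that call.

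In the respiratory chain 3 of 28 genes were at least 2-fold lower on day 20 than on day 2, Ndufa4 (-1.28), Cycs (-1.20) and Ndufa8 (-1.06), and 0 were higher, where 17% and 15.5% of all genes were. None of the 3 calls is made with spike-in scaling. That of Ndufa8 is also lost with median scaling and with the percentile over probes well above background. The list's median was -0.54, and above 0 with cyclic loess and spike-in scaling.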
